A study of Mus musculus with 3 samples.

Results

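The genes described here are 51 components of the DNA replication machinery and of deoxynucleotide synthesis, chosen by name, and 50 of them had an array probe set assigned to them alone, out of 22180 such genes in the series. Rfc4 shared its probe set with a neighbouring gene and was not analysed here. The cells came from the medial ganglionic eminence (MGE), a ventral forebrain zone of the embryo where many GABA-releasing interneurons are born, of wild-type CD-1 mouse embryos at embryonic day 13. Dissociated cells were plated at 59000 per square centimetre in medium with FGF2 at 40 ng/ml, 2% B27 supplement and L-glutamine at 500 µM. On day 5, cytosine arabinoside (AraC) was added at 1 µM for 24 h, it was then washed out with 3 changes of medium 2 h apart, and the neurons, labelled as purified, were kept for 2 more days. The 3 biological replicates form 1 group, with 1 array each. All 3 received AraC and no culture without it belongs to the series, so the data show which replication genes gave signal after the treatment and not what AraC changed.

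A cell that prepares to divide loads inactive MCM helicases onto replication origins with the help of the origin recognition complex (ORC), Cdc6 and Cdt1. Kinases then switch the helicases on, together with Cdc45 and the GINS complex, and polymerases copy the opened strands while ribonucleotide reductase and thymidylate synthase supply deoxynucleotides. Many of these genes are transcribed ahead of S phase under the control of E2F transcription factors, and most are low in postmitotic neurons. AraC is a cytidine analogue that is phosphorylated inside the cell and built into growing DNA, which stops the strand and kills cells in S phase. It is used to clear dividing progenitors and glia from neuronal cultures.

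Values are the authors' deposited log2 signals. A gene is called above background where at least 1 of its probe sets passed. A probe set passed where its mean over the 3 cultures exceeded 6.26, at an adjusted p under 0.05 in limma's 1-sided moderated test. The threshold of 6.26 is the 95th percentile of 1440 probe sets that target genes of smell, pheromone and bitter taste receptors (their median was 4.37). The p was adjusted over the other 22081 probe sets, which stand for the 20751 genes tested. Binding strength varies from probe set to probe set, so the level of one gene is not set against that of another. Arrays give no depth, and their number, 3, limits the precision. The column medians were 6.57, 6.52 and 6.56. Each array measured a whole culture, so fewer cells of a type and less RNA per cell cannot be told apart.

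Transcripts of nearly all measured replication genes gave signal above background in these AraC-treated cultures. Of the 50 measured members, 48 (96%) were above background, against 63.4% of all genes tested. With the stricter demand that the mean exceed the threshold by 1 log2 unit, 45 (90%) were, against 47.6% of all genes. The 48 lay at 6.70 or higher in every culture, and their adjusted p (limma) ran from 1.37e-06 for Gins4 to 0.000628 for Orc1. Gmnn and Gins1 were the members not above background, and Orc1, Fen1 and Chaf1a those that met the first demand but not the stricter one. The count of 48 was the same with each culture left out in turn. The plot of members by culture shows all 50.

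**Figure D1:**
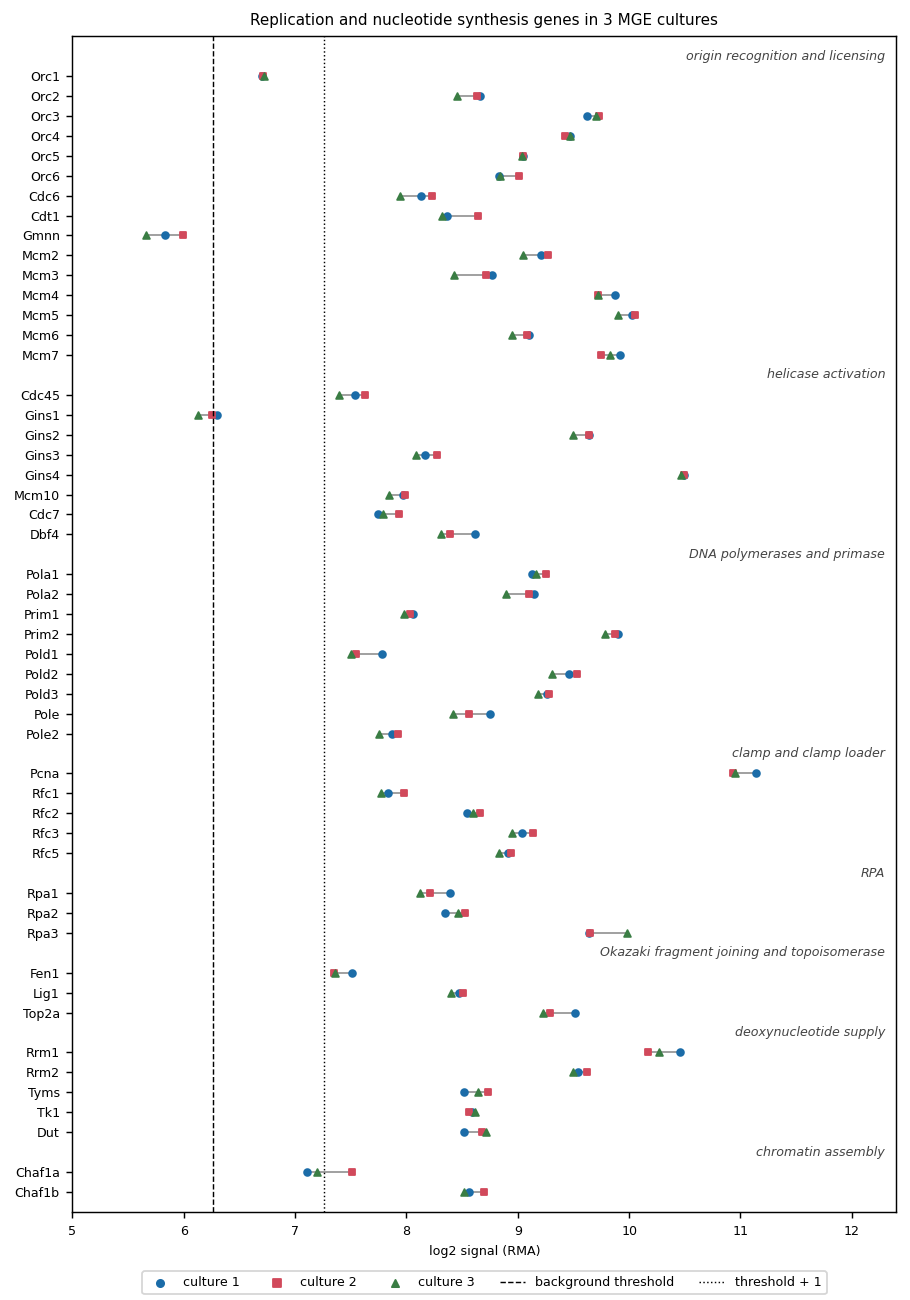
Log2 signal (x axis) of each of the 50 measured members (rows, by role) in cultures 1, 2 and 3 (circle, square and triangle), with a grey line from the lowest to the highest culture. The dashed line is the background threshold of 6.26 and the dotted line lies 1 log2 unit above it. Gmnn lies left of the dashed line in every culture, Gins1 lies on it, and the other 48 lie right of it.

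What the members share beyond their role can be looked for in their promoters. A promoter window from RefSeq (build GRCm38.p6, 250 bases before to 50 after a transcript start) was at hand for 43 of the 51. An E2F site, searched on both strands as TTTCCCGC, TTTGGCGC, TTTCGCGC or TTTGCCGC, stood in the window of 15 of the 43 members (34.9%), of 470 of 10295 genes above background that had a window (4.57%) and of 704 of 27025 genes in the table (2.6%). The CCAAT box, searched as CCAAT on both strands, stood in 25 of 43 (58.1%), against 42.3% of genes above background and 41.1% of all. The cell cycle homology region, TTTGAA or TTCGAA on either strand, stood in 10 of 43 (23.3%), against 15.6% and 21.7%. These are matches of letters, described without a test, and they do not show that a factor binds.

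Upstream of the transcript start, 9 of the 43 members held an E2F match (20.9%), against 3.82% of genes above background and 2.16% of all. The matches that also lie outside the bounds of their own RefSeq gene belong to Mcm5, Mcm6, Gins3 and Rfc3, and these are shown. The stretches around the upstream matches of Orc1, Orc3, Cdc6, Mcm7 and Pola1 overlap their own gene and are not shown. Capitals mark the matched letters, the flanks are in lower case, and each line reads 5′ to 3′ on the strand of the gene. In Mcm5 (chr8:75109336-75109387, plus strand) and in the first Mcm6 window (chr1:128359784-128359835, minus strand) a forward and a reverse match overlap, so that the capitals form 1 longer run, which begins 153 and 110 bases before the start. The second Mcm6 window (chr1:128359725-128359772) holds a match 47 bases before it. The Gins3 match (chr8:95633498-95633545, plus strand) begins 41 bases and the Rfc3 match (chr5:151651209-151651238, minus strand) 10 bases before the start.
Mcm5: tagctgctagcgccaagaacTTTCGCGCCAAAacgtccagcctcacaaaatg
Mcm6, distal: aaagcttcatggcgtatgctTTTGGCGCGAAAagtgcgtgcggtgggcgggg
Mcm6, proximal: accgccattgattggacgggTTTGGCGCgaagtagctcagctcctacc
Gins3: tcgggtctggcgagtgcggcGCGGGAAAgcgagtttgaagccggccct
Rfc3: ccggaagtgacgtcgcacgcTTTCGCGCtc

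Top2a carried a different arrangement. The CCAAT boxes of the other members are not shown. Top2a was singled out after the counts were seen, as it had the most of the 43 members with a window. Upstream of its start, 6 CCAAT boxes were found on the 2 strands, a number that 18 of 27025 genes (0.0666%) reached. They fall in 2 stretches, chr11:99024314-99024436 and chr11:99024223-99024307 on the minus strand, and are shown in capitals, ATTGG being CCAAT read on the other strand.
Top2a, distal: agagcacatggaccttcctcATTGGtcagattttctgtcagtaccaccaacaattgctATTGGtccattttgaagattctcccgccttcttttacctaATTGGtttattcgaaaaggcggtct
Top2a, proximal: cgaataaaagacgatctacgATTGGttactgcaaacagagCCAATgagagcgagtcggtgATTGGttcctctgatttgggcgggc

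Origin recognition and licensing had 14 of its 15 members above background. Values of single genes are given below for cultures 1, 2 and 3 in that order, followed by the mean ± SD (n = 3 cultures). All of the ORC genes passed. Orc1, the ORC subunit whose protein is destroyed and remade in each cycle, gave 6.70, 6.71 and 6.72 (6.71 ± 0.01, adjusted p = 0.000628 by limma), and its call rests on a narrow spread at a level just above the line. It was lost with the 99th percentile as threshold. Orc2 gave 8.66, 8.63 and 8.45, and Orc6, which joins ORC loosely, 8.83, 9.01 and 8.84. Orc3 (9.62, 9.73 and 9.70), Orc4 (9.47, 9.42 and 9.47) and Orc5 (9.05, 9.05 and 9.04), which with Orc2 form the stable core of ORC, differed by at most 0.11 between cultures.

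The loaders of the helicase were above background while the inhibitor of loading was not. Cdc6, an ATPase that joins ORC to load MCM rings, gave 8.13, 8.23 and 7.94 (8.10 ± 0.15, adjusted p = 1.9e-05, limma). Cdt1, which escorts the MCM ring to the origin, gave 8.36, 8.64 and 8.32 (8.44 ± 0.18, adjusted p = 1.61e-05, limma). Both were highest in culture 2 and lowest in culture 3. Geminin (Gmnn), which binds Cdt1 in S and G2 phase and prevents a new round of loading, gave 5.83, 5.99 and 5.66 (5.83 ± 0.17, adjusted p = 1, limma). All 3 values lay below the threshold, and Gmnn was called under none of the alternatives tried, a threshold at the 90th percentile included. Gmnn has a single probe set, so a probe set that responds poorly and a low transcript level cannot be told apart.

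Every subunit of the MCM ring, the core of the replicative helicase, was above background, also with the stricter demand. Mcm2 gave 9.21, 9.27 and 9.05, Mcm3 gave 8.77, 8.71 and 8.43, and Mcm4 gave 9.87, 9.72 and 9.72. For these and the next 3, culture 3 was the lowest except for Mcm7, where culture 2 was (Mcm4 was the same in cultures 2 and 3 to the decimals printed). Mcm5 gave 10.03, 10.05 and 9.90, Mcm6 gave 9.10, 9.08 and 8.95, and Mcm7 gave 9.92, 9.75 and 9.83. The widest range among the 6 was 0.34 log2 units, for Mcm3. The adjusted p of the 6 ran from 1.52e-06 (Mcm5) to 1.28e-05 (Mcm3) by limma.

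Helicase activation had 7 of 8 members above background. Cdc45, which binds the MCM ring to make it active, gave 7.54, 7.63 and 7.39 (7.52 ± 0.12, adjusted p = 5.09e-05, limma). GINS, the other activating partner, is a complex in which each subunit is needed, and its genes did not give a uniform answer. Gins2 gave 9.64, 9.64 and 9.50, Gins3 gave 8.17, 8.27 and 8.09, and Gins4 gave 10.49, 10.49 and 10.47. Gins1 gave 6.30, 6.25 and 6.13 (6.23 ± 0.09, adjusted p = 1, limma), with culture 1 above the line and cultures 2 and 3 below it. With the 90th percentile (5.82) as threshold it was called (adjusted p = 0.00167, limma). Like Gmnn it has a single probe set, so its call describes that probe set.

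Mcm10, a scaffold that helps start unwinding, gave 7.97, 7.99 and 7.84. The kinase Cdc7, which phosphorylates the MCM ring to fire origins, gave 7.74, 7.93 and 7.79, and its activating subunit Dbf4 gave 8.62, 8.39 and 8.31. All 3 passed with the stricter demand. Cdc7 was lowest in culture 1, where Dbf4 was highest.

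The polymerases and primase were above background in 9 of 9, also with the stricter demand. The primase-polymerase alpha complex lays down the first stretch of each new strand. Its catalytic subunit Pola1 gave 9.13, 9.25 and 9.16 and its accessory subunit Pola2 gave 9.15, 9.10 and 8.89. Prim1, the subunit that makes the RNA primer, gave 8.06, 8.03 and 7.98, and Prim2, the large primase subunit, gave 9.90, 9.87 and 9.78. In Pola2, Prim1 and Prim2 the order of the cultures was the same, with culture 1 highest and culture 3 lowest, at ranges between 0.09 and 0.26.

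Polymerase delta, which copies mainly the lagging strand, was represented by Pold1, its catalytic subunit (7.78, 7.55 and 7.50), Pold2 (9.46, 9.53 and 9.31) and Pold3 (9.26, 9.28 and 9.18), both accessory subunits. Polymerase epsilon, which copies mainly the leading strand, was represented by its catalytic subunit Pole (8.75, 8.56 and 8.42) and by Pole2 (7.87, 7.92 and 7.75). Culture 3 was lowest in 8 of the 9 genes of this group, all but Pola1, and in 31.4% of all genes above background. The group's median SD was 0.089.

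Pcna, the ring-shaped clamp that tethers polymerases to DNA, gave 11.14, 10.93 and 10.95 (11.00 ± 0.12, adjusted p = 1.39e-06, limma), highest in culture 1. The clamp loader, replication factor C, opens that ring. Its large subunit Rfc1 gave 7.83, 7.98 and 7.77, and of the small subunits Rfc2 gave 8.54, 8.66 and 8.60, Rfc3 gave 9.04, 9.14 and 8.95, and Rfc5 gave 8.91, 8.94 and 8.83. These 4 were all highest in culture 2, the reverse of Pcna, for which culture 2 was the lowest. That order rests on the scaling, since after quantile normalization 2 of the 5 clamp and loader genes were highest in culture 2. All 5 of the measured clamp and loader genes passed, also with the stricter demand.

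Replication protein A coats single-stranded DNA at the fork, and its genes did not follow a common order. Rpa1, the large subunit that binds DNA, gave 8.39, 8.21 and 8.12. Rpa3, the smallest subunit, had the opposite order of cultures, at 9.64, 9.65 and 9.98. Rpa2, the subunit phosphorylated after replication stress, gave 8.35, 8.53 and 8.46. All 3 passed both demands. Of the enzymes that finish lagging-strand fragments, the flap nuclease Fen1 gave 7.51, 7.35 and 7.36 (7.41 ± 0.09, adjusted p = 4.43e-05, limma) and DNA ligase 1 (Lig1) gave 8.47, 8.51 and 8.40. Fen1 did not meet the stricter demand (adjusted p = 0.0745, limma). Top2a, the topoisomerase that untangles replicated chromosomes, gave 9.51, 9.29 and 9.23, and was highest in culture 1.

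All 5 genes of deoxynucleotide supply were above background, also with the stricter demand. Rrm1, the large subunit of ribonucleotide reductase, gave 10.46, 10.17 and 10.27. Rrm2, the small subunit that is made in S phase, gave 9.54, 9.62 and 9.50 (9.55 ± 0.06, adjusted p = 1.63e-06, limma). Both subunits of the enzyme that turns ribonucleotides into deoxynucleotides were thus detected. Thymidylate synthase (Tyms), which makes dTMP from dUMP, gave 8.52, 8.73 and 8.64. The salvage enzyme thymidine kinase 1 (Tk1) gave 8.59, 8.56 and 8.62, and Dut, which removes dUTP so that uracil is not built into DNA, gave 8.52, 8.68 and 8.71. In this group 1 of 5 genes was lowest in culture 3, against 33 of 50 over all measured members and 31.4% of the genes above background. No test was made of these differences.

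Chromatin assembly factor 1 places histones behind the fork. Its large subunit Chaf1a gave 7.11, 7.51 and 7.20 (7.27 ± 0.21, adjusted p = 0.000388, limma), with the widest spread of any measured member. Its call was lost with the 99th percentile as threshold (adjusted p = 0.143, limma). The middle subunit Chaf1b gave 8.56, 8.70 and 8.52 and passed with the stricter demand.

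Where a member had 2 probe sets, they often disagreed. This was so for 4 of the 6 members with 2, whose second probe set lay below the threshold in every culture (adjusted p = 1 in each case, limma). The lower probe set of Rrm2 gave 4.36, 4.55 and 4.51, that of Dut gave 4.92, 5.27 and 5.21, and those of Pole and Rpa1 had means of 5.30 and 5.13. For Fen1 and Rpa3 both probe sets passed, the second with means of 7.26 ± 0.19 and 7.67 ± 0.23. The second Fen1 probe set was highest in culture 2 (7.15, 7.48 and 7.15) where the first was lowest, so the order of cultures was not a stable property of that gene. One passing probe set was enough for a gene to be called, and averaging probe sets instead left the count at 48 of 50. The plot of paired probe sets shows all 6 genes.

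**Figure D2:**
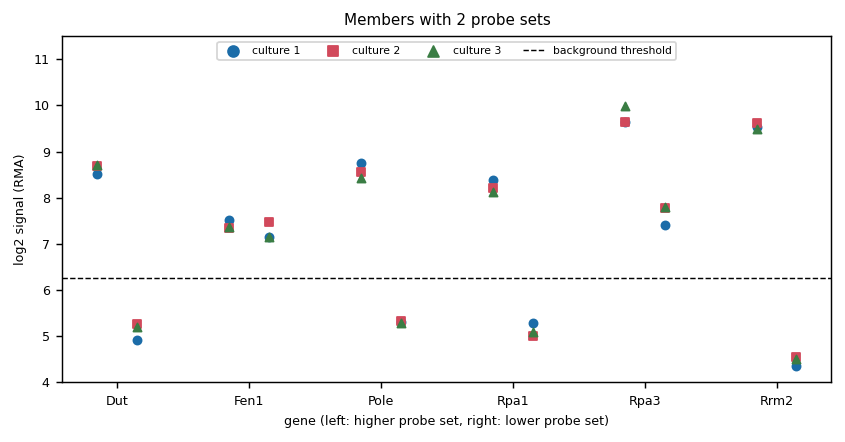
Log2 signal (y axis) of both probe sets of the 6 members that have 2, in cultures 1, 2 and 3 (circle, square and triangle). For Dut, Pole, Rpa1 and Rrm2 the lower probe set (right of each pair) lies under the dashed background threshold of 6.26 in every culture, and for Fen1 and Rpa3 both lie above it.

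Other genes of the same pathways, from lists that hold none of the members, were above background at like shares. Over all genes tested the share was 63.4%. The lists were chosen with earlier results of these data known, so they are not separate support. Of 28 measured further replication genes, 27 were above background (96.4%), and 23 with the stricter demand. They included Mcm8 (7.45 ± 0.07) and Mcm9 (6.98 ± 0.19), helicase relatives used in recombination repair, and Mcmbp (9.95 ± 0.03), which binds the MCM ring. Dscc1, part of an alternative clamp loader, was the exception (6.03, 5.93 and 5.82, adjusted p = 1, limma). Of nucleotide metabolism genes 27 of 27 were above background, also with the stricter demand. Among them Rrm2b gave 8.08, 8.41 and 8.12 and encodes the reductase subunit that p53 induces outside S phase. Dck, the kinase that activates AraC, gave 8.52, 8.61 and 8.48, and mitochondrial Tk2 gave 9.54, 9.73 and 9.59. Rnaseh2c, Chtf18, Impdh2, Pfas and Nme2 had no probe set of their own and were not analysed here.

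Genes of mitosis and of the G1/S switch were above background along with the replication genes, where 63.4% of all genes tested were. All 29 measured mitosis and cytokinesis genes passed, 27 of them with the stricter demand, among them the proliferation antigen Mki67 (10.24, 9.86 and 10.01), the mitotic kinase Cdk1 (10.54, 10.35 and 10.23) and cyclin A2, Ccna2 (11.02, 10.64 and 10.81). Of 29 G1/S regulators 28 passed, 26 with the stricter demand. The activators E2f1 (8.13 ± 0.08) and E2f3 (8.97 ± 0.06) were among them, while E2f2, the third activator, was not (6.20, 6.55 and 6.40, adjusted p = 0.178, limma) although it passed without culture 1 (adjusted p = 0.0416, limma). Cdkn1a, the CDK inhibitor p21 that arrests cells after DNA damage and that also marks cells leaving the cycle, gave 11.73, 11.90 and 11.63. Cdkn1a was named after its value was seen. The other CDK inhibitors listed, Cdkn1b, Cdkn1c, Cdkn2a, Cdkn2c and Cdkn2d, were also above background. Cdkn1c and Cdkn2a did not meet the stricter demand. Ccnb1 and Ccne2 were not analysed here.

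**Figure D3:**
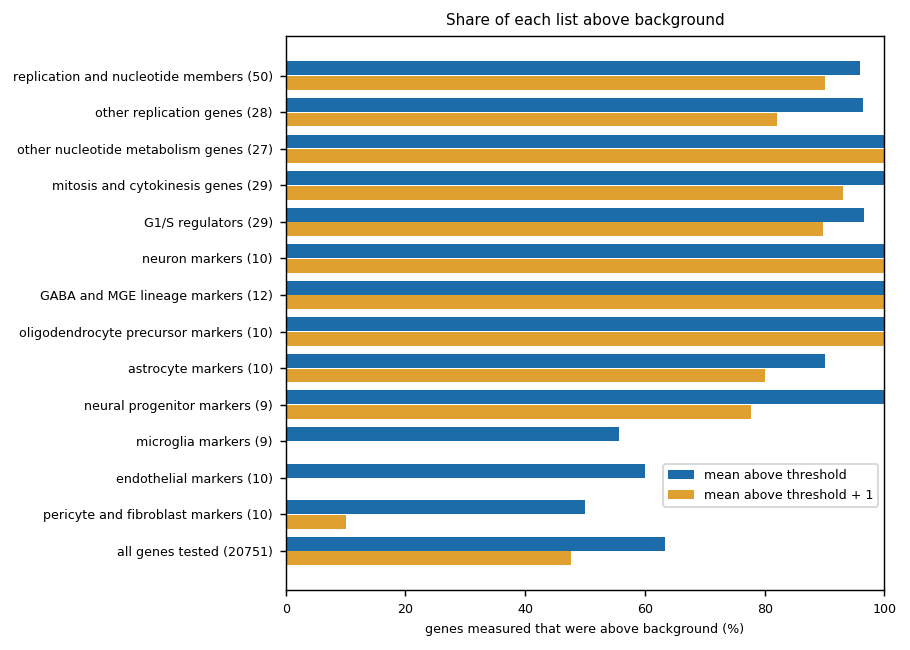
Share of the measured genes of each list (number in brackets) whose mean exceeded the background threshold (blue) or the threshold plus 1 log2 unit (orange), as percent on the x axis, with all 20751 genes tested at the bottom. The replication and nucleotide members reach 96% and 90%, all genes 63.4% and 47.6%, and the microglial and endothelial lists 0% at the stricter line.

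Markers listed for several cell types gave signal above background in these cultures, at shares to be set against 63.4% of all genes tested. Each array measured a whole culture, so a marker above background does not show which cells carried it. Neuron markers were above background in 10 of 10 (Tubb3 11.79 ± 0.16, Dcx 11.64 ± 0.02, Stmn2 12.95 ± 0.09) and GABA and MGE lineage markers in 12 of 12 (Gad1 10.23 ± 0.53, Gad2 10.74 ± 0.26, Slc32a1 8.83 ± 0.39), so markers of the labelled cell type were present. Markers of oligodendrocyte precursors, glia that go on dividing, were above background in 10 of 10, with Pdgfra at 11.51, 11.42 and 11.42, Cspg4 at 8.09 ± 0.09 and Olig1 at 11.84, 11.66 and 11.73. Neural progenitor markers were in 9 of 9, with Nes at 9.56, 9.28 and 9.20, Vim at 13.05, 12.89 and 12.92 and Sox2 at 11.29, 10.66 and 11.04. Astrocyte markers were in 9 of 10, with Aldh1l1 at 10.69, 9.80 and 10.30, Aqp4 at 8.74, 7.53 and 8.34 and Gfap at 8.51, 6.64 and 8.08, and S100b was the exception (6.55 ± 0.33, adjusted p = 0.0879, limma). Gfap lost its call without culture 1 or culture 3 (adjusted p = 0.0888 and 0.10, limma), and S100b gained one without culture 2 (0.0219). With the stricter demand 7 of the 9 progenitor markers passed (not Pax6, 7.26 ± 0.20, or Prom1, 7.07 ± 0.19). Of the astrocyte markers 8 of 10 did (not Gfap or S100b), and all neuron, lineage and oligodendrocyte precursor markers did. Which cells contributed the replication transcripts was not tested.

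Markers of microglia and of vessel cells lay near the threshold with few exceptions. Microglia markers were above background in 5 of 9 (Cx3cr1 7.20 ± 0.24, Aif1 6.54 ± 0.11; not Csf1r, 6.36 ± 0.12, Itgam, Tmem119 or Fcrls), endothelial markers in 6 of 10 (Pecam1 6.52 ± 0.14, Cdh5 6.81 ± 0.27, Kdr 7.36 ± 0.12; not Tek, Tie1, Esam or Ly6c1), and pericyte and fibroblast markers in 5 of 10 (Pdgfrb 6.88 ± 0.08, Rgs5 6.88 ± 0.33, Col1a1 7.22 ± 0.22; not Col1a2, Kcnj8, Abcc9, Anpep or Lum). The shares were 55.6%, 60% and 50%, against 63.4% of all genes, a small difference in lists of 9 or 10 genes. The stricter demand was met by 47.6% of all genes. With it the counts were 0, 0 and 1 (limma, 0, 0 and 1 also at an unadjusted p under 0.05). The 1 was Acta2, smooth muscle actin (9.93, 9.87 and 8.38), singled out after its values were seen. Without culture 3 the microglial count was 2 (Aif1, P2ry12 and C1qb lost) and the pericyte count 3 (Rgs5 and Col3a1 lost), and without culture 1 the endothelial count was 3 (Pecam1, Cldn5 and Emcn lost).

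The replication genes differed little between the 3 cultures. The median SD of the 50 measured members was 0.093 log2 units, against 0.118 over the 13155 genes above background, and 36 of the 50 lay under that latter value. No member spanned more than 0.5 log2 units between its lowest and highest culture, whereas 1578 of the 13155 genes above background (12%) did. The widest span was that of Chaf1a, 0.40. Median SD was 0.102 for the further replication genes, 0.119 for the further nucleotide genes, 0.131 for G1/S regulators, 0.145 for the mitosis genes, 0.194 for progenitor markers and 0.364 for astrocyte markers. All of these are values as deposited. After quantile normalization the median SD was 0.073 for the members and 0.111 for the genes above background. After median centring these were 0.117 and 0.129. Members are not replicates of a condition, and with 1 array per culture no test between cultures can be made, so these are descriptions.

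Small as they were, the differences ran mostly one way. Culture 3 had the lowest value in 33 of 50 members (66%), against 31.4% of the genes above background. The median deviation of a member from its own 3-culture mean was 0.02, 0.05 and -0.07 in cultures 1, 2 and 3, against -0.02, 0.04 and -0.02 over the genes above background. Culture 3 was the most frequent lowest culture under each scaling tried, with 29 of 50 after quantile normalization (26.4% of genes above background) and 34 after median centring (34.2%). Which culture was highest depended on the scaling. Culture 2 led with 26 members (52%) and culture 1 with 20 (40%) as deposited, against 52.1% and 32.4% of the genes above background. After quantile normalization the numbers were 16 and 28 (32% and 56%), against 44% and 34.5%. After median centring they were 36 and 11 (72% and 22%), against 62.9% and 24.6%. Median centring moved the genes above background themselves, whose median difference of culture 3 minus culture 2 went from -0.07 to -0.11.

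By role, the low values of culture 3 were found in 10 of 15 licensing genes, 7 of 8 helicase activation genes, 8 of 9 polymerase and primase genes and 3 of 5 clamp and loader genes. Among the genes of deoxynucleotide supply it was 1 of 5, and for replication protein A 1 of 3. After quantile normalization the counts in this order were 8, 7, 7, 3, 1 and 1, and after median centring 9, 7, 8, 4, 1 and 1. Okazaki fragment joining and topoisomerase had 2 of 3 (1 after quantile normalization, 3 after median centring), and chromatin assembly 1 of 2 (1 and 1). Of the further replication genes it was 13 of 28 and of the further nucleotide genes 11 of 27. Over the genes above background the share was 31.4% (26.4% and 34.2%). The smallest groups hold too few genes to be set against that share.

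Mitosis genes were also mostly lowest in culture 3, in 21 of 29 (72.4%; 15 after quantile normalization, 22 after median centring). After quantile normalization 13 of them were lowest in culture 2. G1/S regulators were lowest in culture 3 in 14 of 29 (13 and 17). The share over the genes above background was 31.4% (26.4% and 34.2%). Of the mitosis genes 24 were highest in culture 1 (25 after quantile normalization, 19 after median centring), and of the 50 replication members 20 were (28 and 11). Over the genes above background, culture 1 was highest in 32.4% (34.5% and 24.6%) and lowest in 43.7% (42.5% and 48.3%). Markers of oligodendrocyte precursors were highest in culture 1 in 9 of 10 (8 after median centring), of astrocytes in 10 of 10 and of progenitors in 9 of 9, while GABA and MGE lineage markers were lowest there in 11 of 12 and neuron markers in 8 of 10. The median deviation from each gene's own mean was 0.36, -0.39 and 0.03 in cultures 1, 2 and 3 for the astrocyte list, 0.22, -0.14 and -0.06 for the progenitor list, 0.16, -0.04 and -0.06 for oligodendrocyte precursor markers and 0.13, -0.03 and -0.08 for the mitosis genes. The part of any cell type in the order of the replication genes was not tested.

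**Figure D4:**
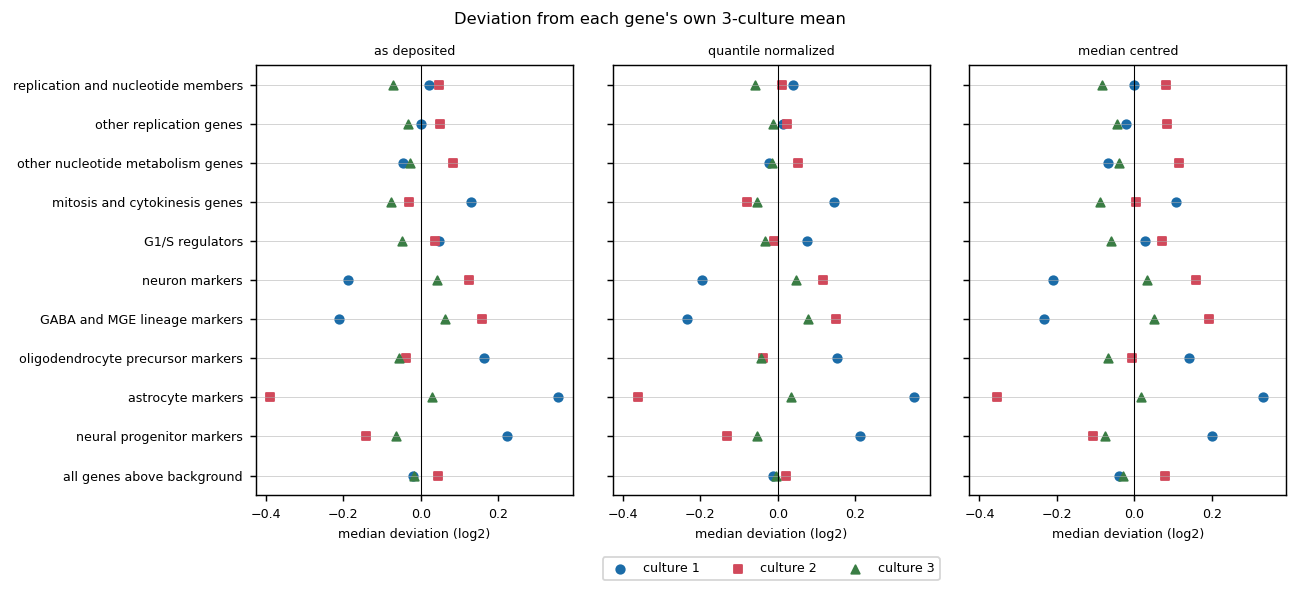
Median deviation of the genes of each list from their own 3-culture mean (x axis, log2 units) in cultures 1, 2 and 3 (circle, square and triangle), for the values as deposited, after quantile normalization and after median centring. Culture 3 is the lowest for the replication and nucleotide members in each panel, and for the mitosis genes as deposited and after median centring. Astrocyte and progenitor markers and mitosis genes are highest in culture 1 in each panel, and the members are after quantile normalization.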

How the data were processed

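Total RNA (100 ng per array) of 3 replicate cultures was labelled with biotin and hybridized to Affymetrix arrays, 1 per culture. For each array the authors deposited log2 signals of 41345 probe sets. Per the submitters' processing notes these were made with oligo and RMA. Versions and settings are not given there. The signals ranged from 2.07 to 13.92. In the platform's annotation, 23521 of the probe sets carried 1 gene symbol, 1814 several and 16010 none, and only the first kind was used.

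Background was the 95th percentile of 1440 receptor probe sets (symbols starting with Olfr, Vmn1r, Vmn2r or Tas2r). The other 22081 probe sets were tested in limma 3.58.1 (R 4.3.3) with an intercept-only fit over the 3 cultures, and p was adjusted by Benjamini-Hochberg. The prior had 2.13 degrees of freedom. A gene is represented by its probe set with the highest mean. All members were named, and of the other lists the first 3 genes, those not above background, most of those without a probe set of their own (the others are not reported here), and those whose call changed when a culture was left out. Outside that rule, Pax6 and Prom1 were named because they missed the stricter demand. Acta2 and the CDK inhibitors were named after their values were seen. Members and lists were chosen with earlier results of these data known. A planned search of protein motifs was not made, since no protein sequences were used here. Promoters are RefSeq's, matched by symbol. The alternatives tried were other thresholds, a margin, a prior trend, renormalization, other handling of probe sets and leaving out each culture.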

Additional observations from a re-analysis of the deposited data

How the results depend on the processing

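The count of 48 of 50 members above background was the same when each culture was left out, after quantile normalization, median centring, with an intensity trend, with the mean over probe sets, with low probe sets left out and with every culture required to exceed the threshold. It was 46 at the 99th percentile (7.10; Orc1 and Chaf1a lost), 45 with Krtap, Defb and Lce probe sets as background (7.29) or with a margin of 1 (Orc1, Fen1 and Chaf1a lost in both), and 49 at the 90th percentile (Gins1 gained). Of all 20751 genes tested, 13155 were above background in the main setting. That number was 10350 at the 99th percentile, 9880 with the margin of 1 and 15050 at the 90th percentile. With the Krtap, Defb and Lce background it was 9781 of 22069. The median SD of the members lay between 0.073 and 0.117.

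Lists near background moved more. The microglial count (5) was 0 at the 99th percentile, 0 with the Krtap, Defb and Lce background and 0 when a margin of 1 was demanded (limma, also 0 at an unadjusted p under 0.05), and 2 to 4 with 1 culture left out. The endothelial count (6) was 1, 0 and 0 in the same settings (1, 0 and 0 unadjusted) and 3 to 5, and the pericyte count (5) was 1, 1 and 1 and 3 to 5. Members highest in culture 1 (20) numbered 11 after median centring, and those highest in culture 2 (26) numbered 16 after quantile normalization. Over the genes above background the same shares went from 32.4% to 24.6% and from 52.1% to 44%. The cause was not tested. No paired analysis was possible because the samples form a single group. The number of arrays, 3, limits the precision of each call.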
